A study of Arabidopsis thaliana with 6 samples.

Results

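The growth-regulating factors GRF1 to GRF9 are a family of plant transcription factors, and AN3 (ANGUSTIFOLIA3, also called GIF1) is the coactivator that they bind. These 10 genes were chosen by their locus identifiers out of the 24439 genes listed, with the levels of these libraries already known, so their own levels and fold changes are given as a description. Transcripts were measured by RNA sequencing of whole Arabidopsis thaliana seedlings grown for 4 days in darkness at 22 °C, after a cold period of 3 days at 4 °C and a white light treatment lasting 12 h, which all groups shared. The pifq group is labelled "pifq1 pifq3 piq4 pifq5" homozygote, read here as the quadruple mutant of the phytochrome-interacting factors PIF1, PIF3, PIF4 and PIF5. The f1f3 group is the fypp1 fypp3 homozygote, mutated in a pair of genes for PP6 phosphatase catalytic subunits, and Col is the wild type. Each group had 2 libraries, no allele names are given here, and nothing states whether the libraries came from separate cultures, so the spread between them may be technical. The study's title places PP6 phosphatases upstream of PIF proteins, which keep seedlings in their dark form. The 3 genotypes address how the transcripts of each mutant differ.

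A GRF protein recognises DNA through its WRC domain and holds a coactivator of the AN3 (GIF) family through its QLQ domain. AN3 in turn recruits SWI/SNF chromatin remodelling complexes. Together they keep cells dividing in leaf primordia, and loss of AN3 gives narrow leaves with fewer cells. The microRNA miR396 cuts the messages of most GRF genes and so limits where and when they act. GRF7 differs in its known role, since it represses DREB2A and other drought-response genes in well-watered plants. In a dark-grown seedling the hypocotyl elongates while cotyledons and leaf primordia stay small.

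The miR396 sequences and their sites in the family are shown first, because they divide the GRF genes into those where the search below found a site and those where it did not. The mature microRNAs are written 5′ to 3′ in DNA letters with the seed (bases 2 to 8) in capitals, from the RefSeq annotation of TAIR10.1. Both share the seed and differ in the last base.
miR396a-5p, chr2:4142443-4142463, minus strand: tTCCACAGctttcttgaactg
miR396b-5p, chr5:13611808-13611828, plus strand: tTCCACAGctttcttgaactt
A search of the coding sequences for the complement of either microRNA, with 1 bulged base allowed and at most 2 mismatches, found a site of 22 bases in 7 members. Each lies within 1 coding exon. Capitals mark bases that can pair with the better matching of the 2 microRNAs, and lower case marks a mismatch or the bulged base.
GRF1, chr2:9729944-9729965, plus strand: tcGTTCAAGAAAGcCTGTGGAA
GRF2, chr4:17726404-17726425, minus strand: tcGTTCAAGAAAGcCTGTGGAA
GRF3, chr2:15271745-15271766, minus strand: CcGTTCAAGAAAGcCTGTGGAA
GRF4, chr3:19617293-19617314, minus strand: CcGTTCAAGAAAGcCTGTGGAA
GRF7, chr5:21795145-21795166, plus strand: tcGTTCAAGAAAGCaTGTGGAA
GRF8, chr4:12538649-12538670, plus strand: tcGTTCAAGAAAGCaTGTGGAA
GRF9, chr2:18746292-18746313, plus strand: AcGTTCAAGAAAGCtTGTGGAA
The sites of GRF1 and GRF2 are identical, as are those of GRF3 and GRF4 and those of GRF7 and GRF8. GRF3, GRF4 and GRF9 have 1 mismatch beside the bulge, and the other 4 have 2. Of 27444 coding sequences searched the same way, 14 (0.051%) held such a site, and 7 of those were GRF genes. GRF5, GRF6 and AN3 had no window with fewer than 6 mismatches. A match describes the letters of the sequence and does not show that the message is cut. Only coding sequences were searched, so the lack of a match does not show that the microRNA cannot pair with the message.

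The 6 libraries held between 17899476 and 27681383 reads assigned to genes. A deposited value is a read count scaled to make the libraries comparable, and 1 read was worth between 0.799 and 1.29 such units. All 10 members were above 10 units in every library, so each passed the filter on low values (10 or more units in 2 or more libraries, met by 20581 genes). Beside the members, the mutated genes were looked at as a check of the labels. In f1f3, FYPP1 and FYPP3 were lower than in Col by log2 fold changes of -1.14 and -1.11. In pifq, PIF3 (-5.24) and PIF5 (-2.32) were lower, whereas PIF1 (0.46) and PIF4 (0.89) did not pass the test; a mutant message can remain without making the protein. In f1f3, PIF4 (-2.15) and PIF5 (-1.13) were also lower. The library of pifq replicate 1 stood apart in transcripts of 8 seed storage genes, whose summed value was 19958 against 19.2 in pifq replicate 2, 92.0 and 136.1 in f1f3 and 104.2 and 16.8 in Col. Each pifq value below therefore rests on 1 library with and 1 without these transcripts, and their part in the results was not tested.

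**Figure D1:**
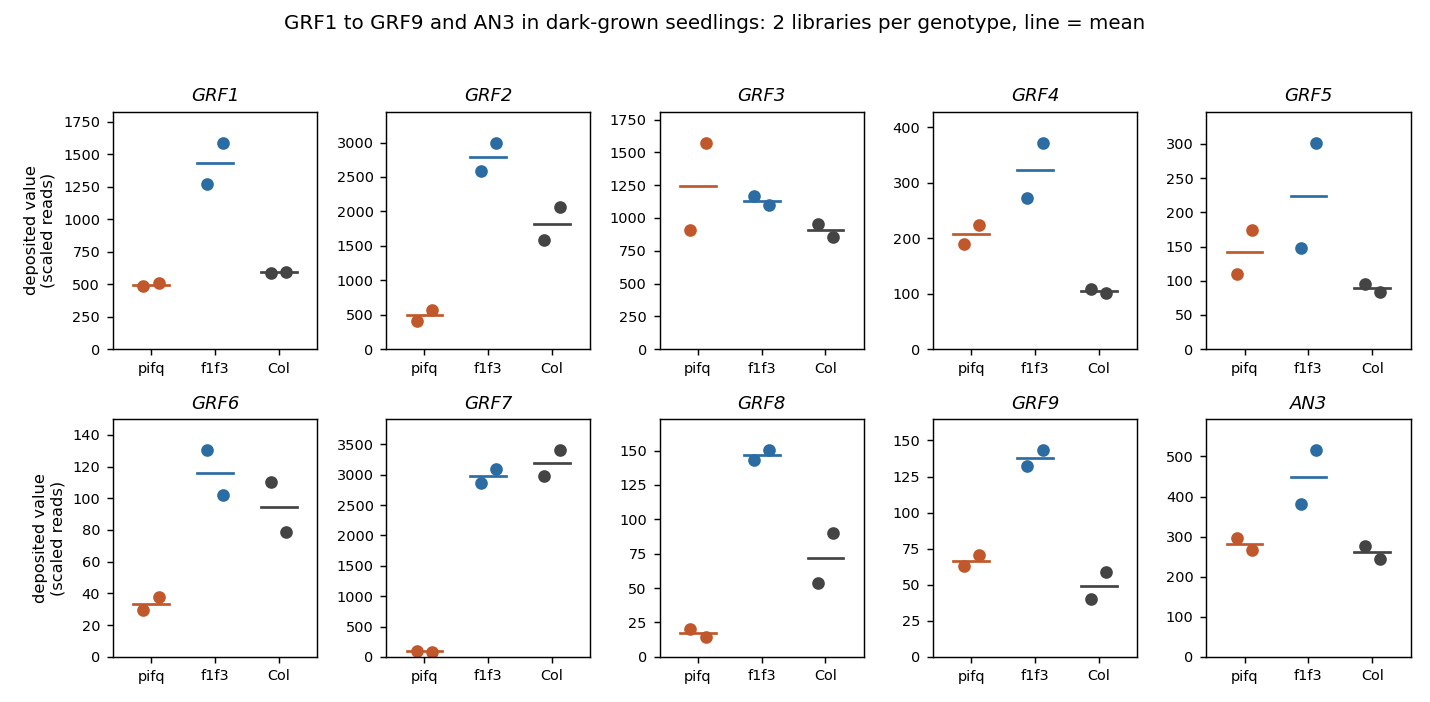
Deposited values (scaled reads, y axis from 0, a separate scale for each gene) of the 10 genes in the pifq, f1f3 and Col libraries; each point is 1 library and the line is the mean of 2. GRF7 lies at 79.4 and 97.4 in pifq against 2863 or more in f1f3 and Col, and every gene except GRF3 and GRF7 has its highest mean in f1f3.

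Levels between genes were compared per kilobase of annotated exon. In Col, GRF7 had the highest level, 1853 ± 176 units per kb (SD, n = 2). GRF2 followed with 866 ± 162, GRF3 with 475 ± 37.0 and GRF1 with 280.2 ± 2.48, and none of these neighbours overlapped between libraries. AN3 (108 ± 9.49) overlapped with GRF6 (86.7 ± 20.5). Below them stood GRF4 at 66.2 ± 2.86, then GRF5 (45.0 ± 4.28), GRF8 (34.8 ± 12.3) and GRF9 (25.3 ± 6.83), of which each overlapped with the next. Whole dark-grown wild-type seedlings thus contained mostly GRF7, GRF2 and GRF3 messages, and little of GRF8 and GRF9.

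The order of levels per kb differed by genotype. In pifq, GRF3 was highest with 651 ± 247 units per kb, GRF1 (235 ± 6.49) and GRF2 (235 ± 54.4) overlapped behind it, and GRF7 (51.4 ± 7.40) overlapped with GRF5 (71.5 ± 23.0). Between these pairs lay GRF4 (131 ± 15.5) and AN3 (116 ± 8.38), which overlapped with each other. At the low end of pifq, GRF9 (34.3 ± 2.65) overlapped with GRF6 (30.7 ± 5.18), and GRF8 was lowest with 8.41 ± 1.78. In f1f3, the order began as in Col with GRF7 (1732 ± 96.2) and GRF2 (1326 ± 140), and GRF1 (677 ± 106) overlapped with GRF3 (593 ± 24.6). The lower part of the f1f3 order held GRF4 (204 ± 44.7) with AN3 (185 ± 38.7), GRF5 (113 ± 55.2) with GRF6 (106 ± 18.4), and GRF8 (70.8 ± 2.46) with GRF9 (70.7 ± 3.92), each of these pairs overlapping.

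Summed over the 9 GRF genes, the level per kb was 1205 and 1692 in pifq, 4607 and 5180.2 in f1f3, and 3522 and 3939.8 in Col. The 3 genotypes did not overlap in this sum: pifq was lowest and f1f3 highest. GRF7 made up 4.70% and 2.73% of the sum in pifq, 36.1% and 34.8% in f1f3, and 49.1% and 50.2% in Col. GRF3 made up 39.5% and 48.8% in pifq, against 13.3% and 11.1% in f1f3 and 14.2% and 11.4% in Col. Without GRF7 the sums were 1148 and 1646 in pifq, 2942 and 3379.8 in f1f3, and 1794 and 1963 in Col, in the same order of genotypes and again without overlap. GRF2 alone gave 197 and 273 of these in pifq against 751 and 980 in Col. The lower pifq sum does not describe every gene: 5 of the 10 members had a positive log2 fold change in pifq over Col and 5 a negative one. Divided by the level of AN3 per kb in the same library, the GRF sum came to 9.90 and 15.4 in pifq, 29.3 and 24.4 in f1f3, and 30.8 and 39.1 in Col. In whole seedlings, fewer cells of a type and less RNA per cell cannot be told apart.

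**Figure D2:**
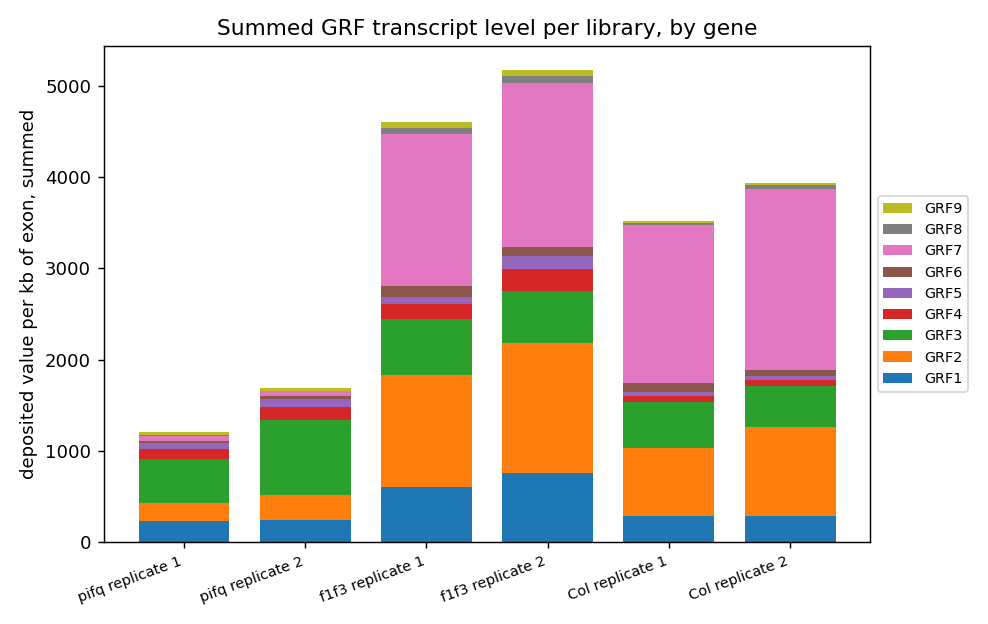
Summed level of the 9 GRF genes per library (deposited value per kb of exon, y axis from 0), stacked by gene, for pifq, f1f3 and Col. The pifq bars end at 1205 and 1692 with almost no GRF7 segment, the f1f3 bars at 4607 and 5180.2, and the Col bars at 3522 and 3939.8.

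The comparison of pifq with Col asked which family transcripts differ when the PIF genes are mutated. GRF7, GRF2, GRF8 and GRF6 were lower in pifq, GRF7 by the most, and no member passed the test as higher. The test was limma with Benjamini-Hochberg adjustment over all tested genes and a threshold of 0.05. It called 4 of the 10 members, all lower, where it called 6.48% of all tested genes in either direction and 2.87% as lower. In the higher direction, where limma called 3.61% of all genes, the members' count was 0 with limma and with edgeR's quasi-likelihood test, and 1 (GRF4) both with DESeq2 and at an unadjusted p under 0.05 in limma. Between pifq and Col, 8 members did not overlap, as did not 54.5% of all tested genes. The median log2 fold change of the 10 members was -0.07, against -0.01 for all genes tested. Since the family was chosen with this contrast known, nothing is read from these counts.

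GRF7 (AT5G53660, chr5:21794177-21796092, plus strand), the repressor of drought-response genes, had values of 97.4 and 79.4 in pifq against 2973 and 3401 in Col. Both pifq libraries lay far below both Col libraries, by 36.0-fold between the means. In reads this was 122 and 70 in pifq against 2313 and 3886 in Col, so each low value rests on 70 reads or more. The log2 fold change was -5.16 with a standard error of 0.18 and a 95% interval of -5.57 to -4.75. Only 17 of the 20581 genes tested had a lower log2 fold change in this comparison.

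GRF2 (AT4G37740, chr4:17725337-17727909, minus strand), a promoter of cell division in leaves together with GRF1 and GRF3, had 413.6 and 575.4 in pifq against 1579 and 2063 in Col. The groups were apart and the means differed 3.68-fold, with a log2 fold change of -1.89 (SE 0.22). GRF8 (AT4G24150, chr4:12535972-12539576, plus strand), one of the least abundant members, had 20 and 14.8 in pifq against 54.0 and 90.1 in Col, a log2 fold change of -1.96 (SE 0.37). Its reads numbered 25 and 13 in pifq against 42 and 103 in Col. GRF6 (AT2G06200, chr2:2426176-2427355, plus strand), the shortest member and without a miR396 site, had 29.5 and 37.5 in pifq against 110.5 and 78.8 in Col, a log2 fold change of -1.46 (SE 0.33). GRF2 and GRF7 passed the threshold under all 16 alternative settings. GRF6 did not pass when any 1 of the 6 libraries was left out (log2 fold change -1.70 to -1.22), and GRF8 did not without Col replicate 2, pifq replicate 1 or pifq replicate 2 (-2.32 to -1.59 over the 6 libraries left out).

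The other 6 members did not pass in pifq against Col. GRF4 (AT3G52910, chr3:19615977-19618507, minus strand) had 190.0 and 224.7 in pifq against 107.9 and 101.5 in Col, with the groups apart and a log2 fold change of 0.97 (interval 0.41 to 1.53). GRF1 (AT2G22840, chr2:9728480-9731301, plus strand) had 487.9 and 507.3 in pifq against 588.6 and 596.0 in Col, also apart, by a log2 fold change of -0.25 (SE 0.18). GRF3 (AT2G36400, chr2:15270088-15273115, minus strand) had 907.9 and 1574 in pifq against 954.8 and 855.0 in Col, so that the groups overlapped and the pifq libraries lay far apart from each other. GRF5 (AT3G13960, chr3:4608076-4610497, plus strand), which enlarges leaves when overexpressed, had 109.4 and 173.7 in pifq against 95.1 and 83.1 in Col. GRF9 (AT2G45480, chr2:18745249-18747634, plus strand), which is known to limit growth of leaf primordia, had 63.1 and 70.4 in pifq against 39.8 and 58.6 in Col. AN3 (AT5G28640, chr5:10647467-10650066, minus strand) had 295.5 and 266.7 in pifq against 277.6 and 245.0 in Col. GRF5 and GRF9 were apart in these libraries and AN3 overlapped; their log2 fold changes were 0.63 (SE 0.38), 0.46 (SE 0.31) and 0.11 (SE 0.22) in that order.

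The comparison of f1f3 with Col asked the same of the PP6 catalytic subunits. GRF1, GRF4, GRF5, GRF9 and AN3 were higher in f1f3, by 1.72-fold to 3.08-fold between means, while GRF7 overlapped between the groups. Limma called 5 of the 10 members, all higher, where it called 24.4% of all tested genes in either direction and 11.6% as higher. The count of lower members was 0 with limma, edgeR and DESeq2 and also 0 at an unadjusted p under 0.05. Of all tested genes, limma called 12.8% as lower. Between f1f3 and Col, 8 members did not overlap, as did not 65.9% of all tested genes. The median log2 fold change of the members was 0.91, against -0.00 for all genes tested. Scaling by library totals moves the median of all genes by 0.12 in this comparison and with edgeR gives 2893 higher and 2052 lower genes, against 2403 and 2546 with edgeR on TMM factors and 2384 and 2634 with limma. In all 3 of these fits 5 members were called.

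GRF4, with 272.1 and 372.2 in f1f3 against 107.9 and 101.5 in Col, had the largest log2 fold change of the family, 1.60 (SE 0.24). GRF9 had 132.3 and 143.1 in f1f3 against 39.8 and 58.6 in Col, a log2 fold change of 1.49 (SE 0.31). GRF1, with 1273 and 1591 in f1f3 against 588.6 and 596.0 in Col, differed by 1.26 (SE 0.18). All 3 genes were apart between the groups, and GRF1 and GRF4 passed under all 16 alternative settings. GRF9 did not pass without Col replicate 1 or f1f3 replicate 2 (1.22 to 1.76 over the libraries left out).

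GRF5 had 147.2 and 301.9 in f1f3 against 95.1 and 83.1 in Col, a log2 fold change of 1.24 (SE 0.38, interval 0.36 to 2.12). Its f1f3 libraries differed by more than the gap between the lower of them and Col. AN3 had 382.2 and 515.2 in f1f3 against 277.6 and 245.0 in Col, a log2 fold change of 0.76 (SE 0.22, interval 0.27 to 1.26), with both f1f3 libraries above both Col libraries. GRF5 and AN3 did not pass with 5 of the 6 libraries left out in turn, all but f1f3 replicate 1, and the log2 fold change of GRF5 was 0.72 without f1f3 replicate 2.

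Of the members that did not pass in f1f3, GRF8 and GRF2 were apart between the groups. GRF8 had 142.9 and 150.1 in f1f3 against 54.0 and 90.1 in Col, a log2 fold change of 1.06 (interval 0.20 to 1.92). GRF2 had 2582 and 2998 in f1f3 against 1579 and 2063 in Col, 0.62 (interval 0.12 to 1.13). GRF3 was also apart, with 1165 and 1098 in f1f3 against 954.8 and 855.0 in Col (0.32, SE 0.25). GRF6 overlapped, with 130.2 and 101.8 in f1f3 against 110.5 and 78.8 in Col. GRF7 overlapped as well, with 2863 and 3097 in f1f3 against 2973 and 3401 in Col, and its log2 fold change of -0.09 had an interval of -0.51 to 0.32. The sign of that small difference turned under 2 alternatives, being 0.0233 with library totals and 0.0024 without Col replicate 2.

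Set directly against each other, pifq was lower than f1f3 in GRF7, GRF8, GRF2, GRF6 and GRF1. The 3 comparisons share libraries and are not independent of each other. Limma called 5 of the 10 members, all lower in pifq, where it called 16.0% of all tested genes in either direction and 6.63% as lower. No member was called higher in pifq by limma, edgeR or DESeq2 or at an unadjusted p under 0.05, a count of 0 each time, where limma called 9.36% of all genes as higher. Between pifq and f1f3, 8 members did not overlap, as did not 59.2% of all tested genes, and the members' median log2 fold change was -1.27 against -0.02 for all genes. Scaling by library totals moves the median of all genes by -0.13 here and with edgeR gives 1481 higher and 1845 lower genes, against 1889 and 1347 with edgeR on TMM factors and 1927 and 1364 with limma. With library totals 6 members were called, against 5 in both of the other fits.

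GRF7 differed 33.7-fold between f1f3 and pifq, a log2 fold change of -5.07 (SE 0.18) for pifq over f1f3. GRF8 differed by -3.02 (SE 0.37), the means being 8.42-fold apart, and GRF2 by -2.51 (SE 0.22). GRF6 differed by -1.76 (SE 0.33) and did not pass without f1f3 replicate 1 or pifq replicate 1. GRF1, which did not pass in pifq against Col, differed by -1.51 (SE 0.18) from f1f3. For GRF9 (-1.03, SE 0.31), AN3 (-0.66, SE 0.22), GRF4 (-0.62, SE 0.24) and GRF5 (-0.61, SE 0.38) pifq did not pass against f1f3 with limma, although GRF4, GRF9 and AN3 were apart between the groups. DESeq2 called GRF9 lower in pifq, and edgeR on library totals called AN3 lower. The GRF5 value ran from -1.13 to -0.09 with 1 library left out, without f1f3 replicate 1 and without f1f3 replicate 2. GRF3 overlapped between the mutants (0.08, SE 0.25), and its sign turned to -0.32 without pifq replicate 2.

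**Figure D3:**
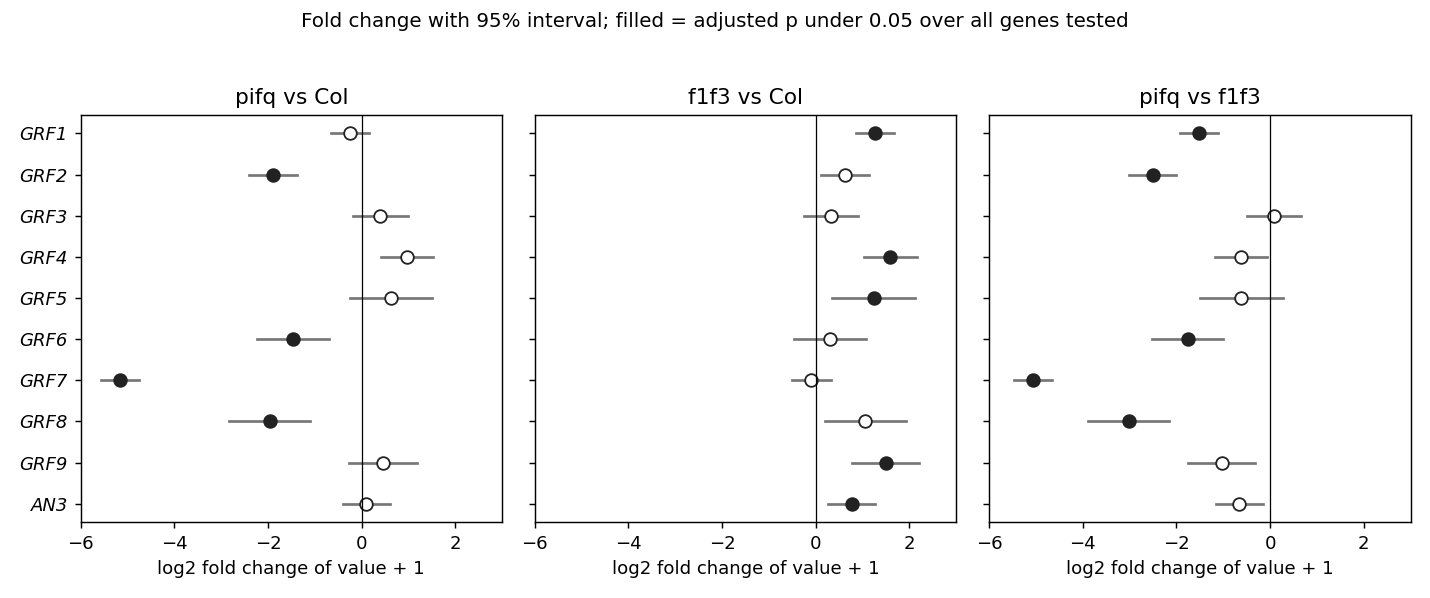
Log2 fold changes of deposited value + 1 (x axis) with 95% intervals from limma for the 10 genes, in pifq vs Col, f1f3 vs Col and pifq vs f1f3. Filled points passed an adjusted p of 0.05 over all tested genes: 4 lower genes in pifq vs Col, led by GRF7 at -5.16, 5 higher genes in f1f3 vs Col, and 5 lower genes in pifq vs f1f3.

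Grouped by the miR396 site, both kinds of GRF gene contained members that passed. Of the 7 genes with a site, GRF2, GRF7 and GRF8 were lower in pifq than in Col, and GRF1, GRF4 and GRF9 were higher in f1f3 than in Col. Of the 2 genes without one, GRF6 was lower in pifq and GRF5 higher in f1f3. Genes with an identical site shared the sign of their log2 fold change over Col, except GRF7 and GRF8 in f1f3. The sizes differed, and the part of miR396 in these levels was not tested. In pifq over Col the log2 fold changes were -5.16 and -1.96 for GRF7 and GRF8, -0.25 and -1.89 for GRF1 and GRF2, and 0.40 and 0.97 for GRF3 and GRF4. In f1f3 over Col they were -0.09 and 1.06 for GRF7 and GRF8, 1.26 and 0.62 for GRF1 and GRF2, and 0.32 and 1.60 for GRF3 and GRF4. The sum per kb over the 6 site-bearing genes other than GRF7, GRF2 among them, was 1066 and 1524 in pifq, 2749 and 3134 in f1f3, and 1645 and 1848 in Col. For GRF5 and GRF6 together it was 82.2 and 122 in pifq, 194 and 246 in f1f3, and 149 and 114 in Col, where pifq and Col overlapped and f1f3 was above both.

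The precursors of the microRNA itself were barely seen. MIR396A had 2.4 and 0.0 in pifq, 4.2 and 4.4 in f1f3, and 0.0 and 3.5 in Col, and MIR396B was between 0.0 and 5.3 in the 6 libraries. Both stayed under the filter and were not tested, and mature miR396 was not measured here. BHLH74, a bHLH factor known in Arabidopsis as a further miR396 target, was lower in pifq, with 533.4 in both libraries against 888.0 and 1016 in Col and 1022 and 953.2 in f1f3. Its log2 fold change was -0.83 (SE 0.16) for pifq over Col and 0.06 for f1f3 over Col, and the call against Col was lost when any 1 of the 4 libraries compared was left out. Its best window had 4 mismatches to miR396.

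The other partners of the GRF proteins, beside AN3, were its 2 paralogs and the chromatin remodelling genes. GIF2, a paralog of AN3, had 585.3 and 627.6 in pifq, 680.7 and 596.9 in f1f3, and 704.2 and 470.8 in Col, with both mutants overlapping Col. GIF3, the other paralog, had 58.3 and 59.0 in pifq, 121.7 and 119.4 in f1f3, and 75.8 and 40.3 in Col, so that f1f3 was above both of the others. Neither passed with limma in any comparison, but GIF3 had a log2 fold change of 1.11 (SE 0.36) in f1f3 over Col and of -1.03 (SE 0.36) in pifq over f1f3. For f1f3 over Col the count of higher paralogs was 0 with limma and with edgeR on TMM factors, and 1 (GIF3) with DESeq2, with edgeR on library totals and at an unadjusted p under 0.05. In pifq against Col 0 paralogs differed with limma, edgeR or DESeq2 or at an unadjusted p under 0.05. Of 13 genes of SWI/SNF complexes, which AN3 recruits, 0 passed with limma, DESeq2 or edgeR on TMM factors in any of the 3 comparisons. Limma called 6.48% of all tested genes in pifq against Col, 24.4% in f1f3 against Col and 16.0% in pifq against f1f3. With edgeR on library totals, 1 SWI/SNF gene (ARP7) was higher in f1f3 over Col. At an unadjusted p under 0.05, 1 of the 13 was higher and 1 lower in f1f3 over Col, and 0 differed in pifq against Col. Their median log2 fold changes were 0.05 in pifq over Col and 0.04 in f1f3 over Col.

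Genes that AN3 is known to bind or act on in Arabidopsis were described by a list of 5, HEC1, CRF2, COL5, ARR4 and COP1. In pifq and in f1f3 0 of them passed against Col with limma and with edgeR on TMM factors. With edgeR on library totals, 1 (CRF2) was higher in f1f3 over Col. Limma called 6.48% of all tested genes in pifq against Col and 24.4% in f1f3 against Col. At an unadjusted p under 0.05, 1 was higher and 2 lower in pifq, and 1 was higher and 1 lower in f1f3, where DESeq2 called 1 lower (COL5) and in pifq 0. COL5, a CONSTANS-like gene, averaged 4752 ± 2192 in pifq, 4321 ± 1710 in f1f3 and 8343 ± 279 in Col (SD, n = 2). CRF2, a cytokinin response factor, averaged 568 ± 88.9 in pifq, 862 ± 39.5 in f1f3 and 529 ± 174 in Col. HEC1, a bHLH factor, averaged 793 ± 93.7 in pifq, 1376 ± 303 in f1f3 and 1325 ± 312 in Col. ARR4, a cytokinin response regulator, was higher in pifq than in f1f3 by a log2 fold change of 0.86 (SE 0.20), a call lost when any 1 of those 4 libraries was left out. COP1, the repressor of photomorphogenesis whose promoter AN3 is known to bind, averaged 574 ± 12.5 in pifq, 495 ± 22.0 in f1f3 and 641 ± 108 in Col.

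Of 5 genes that GRF proteins are known to bind or repress, 2 passed in f1f3 against Col, where 24.4% of all tested genes did. DREB2A, the drought-response target of GRF7, was lower in f1f3, with 78.3 and 21.9 against 250.6 and 224.0 in Col, a log2 fold change of -2.48 (SE 0.52). In pifq DREB2A had 102.2 and 78.3, also below both Col libraries, but its log2 fold change of -1.40 did not pass in the fit of all 6 libraries. It passed in pifq over Col with only those 2 groups in the fit, and without f1f3 replicate 1 or f1f3 replicate 2. PLT2, a root stem-cell regulator, was higher in f1f3, with 68.8 and 89.5 against 18 and 28 in Col and 17.6 and 28.4 in pifq, a log2 fold change of 1.76 (SE 0.45) over Col. Both calls were lost without Col replicate 1 or Col replicate 2, and that of PLT2 also without f1f3 replicate 1 or 2. In pifq against Col, 0 of the 5 passed with limma, edgeR or DESeq2, and 3 were lower at an unadjusted p under 0.05. PLT1 averaged 61.3 ± 6.43 in pifq, 109 ± 53.5 in f1f3 and 56.0 ± 17.4 in Col. KNAT1, a meristem homeobox gene, averaged 922 ± 165 in pifq, 1499.7 ± 12.9 in f1f3 and 1402 ± 185 in Col, and it was lower in pifq than in f1f3 by -0.71 (SE 0.19), as was PLT2 by -1.77 (SE 0.45). Both of these calls were lost when any 1 of the pifq and f1f3 libraries was left out. KNAT2 averaged 45.2 ± 13.2 in pifq, 67.8 ± 6.01 in f1f3 and 81.2 ± 3.96 in Col.

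Other regulators of organ growth were described by a list of 15 genes. In pifq against Col, 3 of them were higher and 2 lower, where 6.48% of all tested genes were called. In f1f3 against Col, 4 were higher and 1 lower, where 24.4% of all tested genes were called. SPT, a bHLH repressor of cotyledon and leaf growth, averaged 516 ± 74.6 in pifq, 1294 ± 44.9 in f1f3 and 1113 ± 6.51 in Col, a log2 fold change of -1.12 (SE 0.17) in pifq over Col. ARGOS, which prolongs cell division in organs, was lower in pifq over Col by -1.38 (SE 0.19). CYCD3;1, a D-type cyclin of dividing leaf cells, was higher in pifq (1.07, SE 0.17) and in f1f3 (0.55, SE 0.17) over Col. Its f1f3 call was lost when any 1 of the 6 libraries was left out, and its pifq call without Col replicate 2, pifq replicate 1 or pifq replicate 2. In pifq over Col, the SPT call was lost without Col replicate 1, Col replicate 2 or pifq replicate 2, and the ARGOS call without pifq replicate 1. PPD2, which restricts division of leaf meristemoid cells, averaged 661 ± 29.5 in pifq, 412 ± 15.1 in f1f3 and 832 ± 27.8 in Col, a log2 fold change of -1.01 (SE 0.16) in f1f3. The counts fell to between 1 and 2 of 15 in pifq when any 1 of the 4 libraries compared was left out, and in f1f3 to 3 without f1f3 replicate 1, 1 without f1f3 replicate 2, and 2 without either Col library.

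Genes of dividing cells were described beside the members. Of 10 such genes, mainly B-type cyclins and mitotic kinases, 5 were higher in pifq and 8 in f1f3 over Col, where 3.61% and 11.6% of all tested genes were called higher in the same order. None, a count of 0, were lower with limma, edgeR or DESeq2 or at an unadjusted p under 0.05. Their median log2 fold change was 0.92 in pifq and 1.05 in f1f3, and their summed values were 4296 and 3165 in pifq, 3549.7 and 3565 in f1f3, and 1952 and 1729 in Col. CDKB2;1, CYCB1;2, AUR1 and the cytokinesis gene KNOLLE were higher in both mutants, by log2 fold changes of 0.96, 1.20, 1.24 and 1.27 in pifq and of 0.82, 0.98, 1.24 and 0.91 in f1f3. In f1f3, where these genes were higher, GRF1, GRF4, GRF5, GRF9 and AN3 were also higher. In pifq, where the same genes of dividing cells were higher, GRF2, GRF6, GRF7 and GRF8 were lower. The members higher in f1f3 did not pass with limma in pifq over Col. Their log2 fold changes there were 0.97 for GRF4, 0.63 for GRF5, 0.46 for GRF9, 0.11 for AN3 and -0.25 for GRF1. The part of dividing cells in the members' levels was not tested. The pifq count was 0 without pifq replicate 1, 4 without pifq replicate 2, 1 without Col replicate 1 and 0 without Col replicate 2. The f1f3 count was 5 without f1f3 replicate 1, 1 without f1f3 replicate 2, 5 without Col replicate 1 and 0 without Col replicate 2.

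Markers of the tissues where GRF genes act were described beside these. Of all tested genes, limma called 3.61% higher and 2.87% lower in pifq over Col. In f1f3 over Col these shares were 11.6% and 12.8%. Of 9 genes of leaf primordia, 1 (YAB5) was higher in pifq (1.36) and in f1f3 (1.12) over Col, with a median of 0.09 in pifq and 0.08 in f1f3. Their summed values were 8868 and 9032 in pifq, 8966 and 9419 in f1f3, and 9334 and 8299 in Col, which overlapped. KAN2, also in this list, was lower in pifq than in f1f3 by -0.99, but it did not pass with only these 2 groups in the fit. The YAB5 call was lost when any 1 of the 4 libraries was left out in pifq against Col, and without Col replicate 1, f1f3 replicate 1 or f1f3 replicate 2 in f1f3 against Col. Of 6 shoot meristem genes, 4 were tested and 0 passed with limma, edgeR or DESeq2, with 1 higher at an unadjusted p under 0.05 in pifq over Col and 0 in f1f3 over Col. WUS and CLV3 stayed under the filter, and the summed values of the 6 were 137.4 and 170.3 in pifq, 202.2 and 159.7 in f1f3, and 187.5 and 171.6 in Col. Of 7 root meristem genes, PLT2 was higher in f1f3 over Col with limma. In pifq 0 passed against Col with limma, edgeR or DESeq2, and 1 was lower at an unadjusted p under 0.05. The summed values of the 7 were 2423 and 3135 in pifq, 3671 and 3422 in f1f3, and 3551 and 3308 in Col. The pifq sums lay below those of f1f3 and Col, which overlapped. PLT1 and PLT2 are also in the list of genes that GRF proteins bind or repress. BBM, another root stem-cell regulator, was lower in pifq than in f1f3 by -2.30 (SE 0.37), a call lost without f1f3 replicate 2, and DESeq2 also called it higher in f1f3 over Col.

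**Figure D4:**
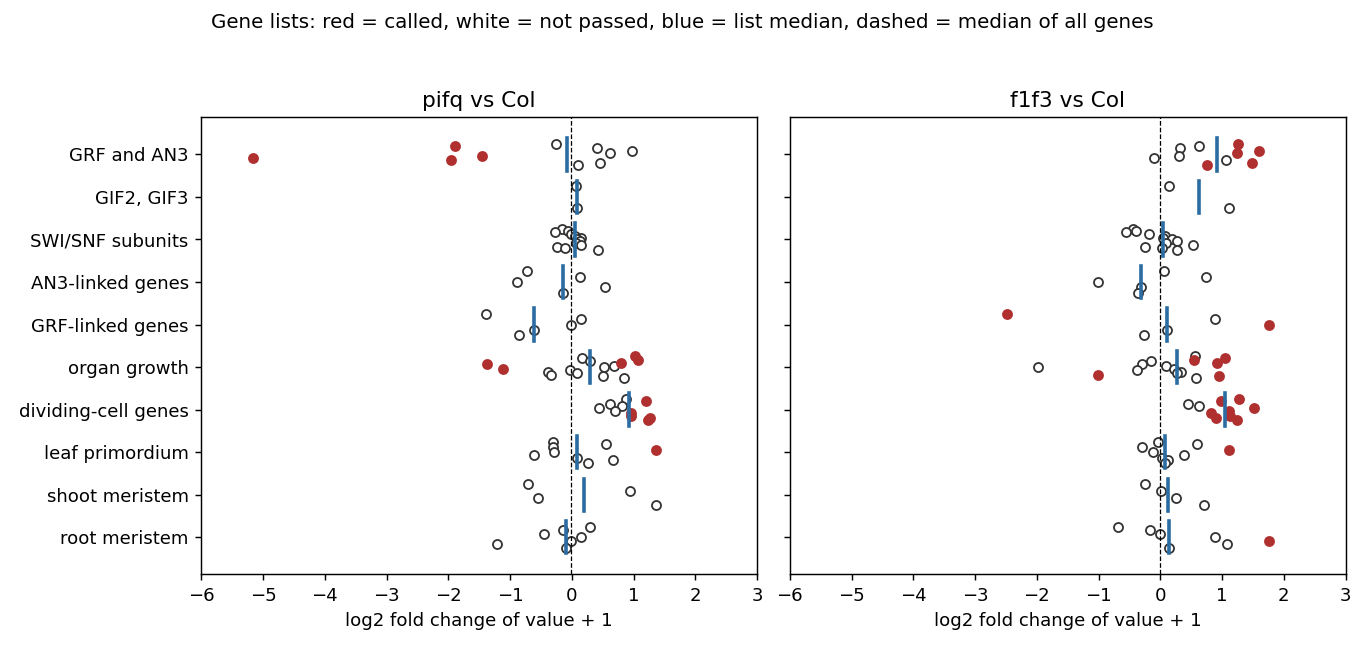
Log2 fold changes of deposited value + 1 (x axis) for the 10 family genes and the tested genes of the 9 lists named at the left, in pifq vs Col and f1f3 vs Col; each point is 1 gene, red where it passed, the blue bar is the list's median and the dashed line the median of all tested genes. Of the genes plotted, GRF7 has the lowest value in pifq vs Col, -5.16, and the genes of dividing cells lie right of the line in both comparisons with medians of 0.92 and 1.05.

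Promoters were examined because PIF proteins are known to bind the G-box (CACGTG) and the PBE-box (CATGTG, or CACATG on the other strand). The 300 bases before the start of GRF1, the member with both motifs there, and of GRF7, the member with the lowest pifq level relative to Col, are shown in TAIR10.1, 5′ to 3′ on the gene's strand, with the motifs in capitals.
GRF1, chr2:9728180-9728479, plus strand: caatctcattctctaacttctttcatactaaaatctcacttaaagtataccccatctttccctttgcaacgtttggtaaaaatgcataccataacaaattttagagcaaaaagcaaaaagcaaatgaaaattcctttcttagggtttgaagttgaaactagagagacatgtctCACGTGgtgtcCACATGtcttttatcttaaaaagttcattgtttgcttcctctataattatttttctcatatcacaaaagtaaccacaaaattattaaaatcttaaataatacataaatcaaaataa
GRF7, chr5:21793877-21794176, plus strand: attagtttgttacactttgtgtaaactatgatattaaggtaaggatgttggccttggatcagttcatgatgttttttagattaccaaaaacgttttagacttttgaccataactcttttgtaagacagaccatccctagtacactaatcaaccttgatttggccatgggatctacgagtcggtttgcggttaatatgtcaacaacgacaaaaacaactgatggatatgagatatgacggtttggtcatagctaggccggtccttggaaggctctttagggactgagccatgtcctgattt
In GRF1 the G-box begins 127 bases and the PBE-box 116 bases before the annotated start. GRF1 was the only member with either motif within 300 bases, where 7.79% of 22767 promoters of protein-coding genes held a G-box and 13.3% a PBE-box. Within 1000 bases, 4 of the 10 members held a G-box, GRF1, GRF2, GRF3 and GRF9, against 15.7% of promoters. A PBE-box was found there in GRF1, GRF2, GRF8 and GRF9, 4 of 10, against 38.2% of promoters. Of the members lower in pifq than in Col, GRF2 and GRF8 held a motif within 1000 bases and GRF6 and GRF7 held neither. GRF4, GRF5 and AN3 held neither. These letters describe the window searched and say nothing about binding.

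Genes with the most similar profile were sought for AN3 and for GRF7, the GRF with the highest mean level per kb, by the Pearson correlation of log2(value + 1) over the 6 libraries. The points share 3 genotypes, so a high value mainly repeats the order of 3 group means. Only genes with a gene symbol and a mean value of at least 100 were compared, 7155 in all. For GRF7 the nearest were PIL1 (r = 0.998), a PIF-related bHLH gene, CER1 (0.998), which makes cuticular wax alkanes, and PIF3 (0.998), which is itself mutated in pifq. PIL1 had 14.4 and 13.6 in pifq, 1411 and 1519 in f1f3, and 1256 and 1199 in Col, so it shared with GRF7 the low pifq values and the similar f1f3 and Col values. For AN3 the nearest were the nuclear exporters XPO1B (0.989) and PSD (0.987) and the Polycomb gene RING1A (0.983), each highest in f1f3 replicate 2 as AN3 was. Among the 7155 genes compared, 82 were above 0.95 for GRF7 and 59 for AN3.

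Several members overlap a neighbour on the opposite strand, and the sources used here do not say whether the counting used strand. GRF9 overlaps AUR3 by 126 bases, and AUR3 had 90.2 and 63.6 in pifq, 72.0 and 107.1 in f1f3, and 55.3 and 58.6 in Col. GRF1 overlaps bZIP6 by 23 bases, and bZIP6 had 78.3 and 110.1 in pifq, 38.1 and 42.1 in f1f3, and 82.2 and 66.5 in Col, lowest in the genotype where GRF1 was highest. GRF3 overlaps SBE2.1 by 5 bases and a long noncoding RNA by 227, and GRF7 overlaps a long noncoding RNA by 244, both of which were not analysed here. The part of shared reads in these members' values was not tested.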

How the data were processed

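RNA was sequenced from 6 libraries of dark-grown seedlings, 2 each of pifq, f1f3 and Col. The submitters' processing notes name Trimmomatic, TopHat2 2.1.0, HTSeq 0.6.1, edgeR and the build TAIR10, without their roles. The authors deposited 1 scaled signal value per gene and library, given to 1 decimal; from the values, it is a read count divided by a library factor, and all values came out as whole reads within 0.06. The product of the read unit and the size factor recomputed from those reads was 1 in every library.

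Log2(value + 1) was fitted with limma 3.58.1 (trend, two-sided) in R 4.3.3 on all 6 libraries, for the 20581 of 24439 genes that reached a value of 10 in 2 or more libraries, with 3 residual degrees of freedom. Adjusted p under 0.05 over all tested genes was called. Fold changes on this scale are understated for low genes. On the recovered reads, edgeR 4.0.16 (quasi-likelihood, TMM) called 4949 genes in f1f3 vs Col and DESeq2 1.42.0 called 5939; both were alternatives, beside other pseudocounts, filters, library totals, fewer groups, a replicate block and leaving out each library. The fits were run on simulated data with known changes, where the share of false calls was above the threshold with limma, edgeR and DESeq2.

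Exon lengths, coordinates and sequences are those of RefSeq TAIR10.1, joined by locus identifier; the files give no coordinates. Protein sequences were not used here. All 10 members are named; of lists of up to 5 genes every gene, and of longer lists up to 4 called genes by smallest p over the 3 comparisons; the 3 genes nearest to AN3 and GRF7 by correlation. The members, lists and tests were chosen with earlier results of these data known.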

Additional observations from a re-analysis of the deposited data

How the results depend on the processing

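Each fold change of the 10 genes was recomputed under 16 alternatives in 3 comparisons, 480 values in all. Of these, 440 kept their direction and their side of the threshold, 29 lost the call, 8 gained it and 3 turned sign. The sign turned for GRF7 in f1f3 vs Col with library totals (0.0233), and its values with 1 library left out ran from -0.19 to 0.0024, the lowest and highest being without Col replicate 1 and without Col replicate 2. It also turned for GRF3 in pifq vs f1f3, whose values with 1 library left out ran from -0.32 (without pifq replicate 2) to 0.48 (without pifq replicate 1). With only the compared groups in the fit, the family genes called were 3 in f1f3 vs Col and 2 in pifq vs Col. DESeq2 called 2434 genes in pifq vs Col, against 1333 with limma. Leaving out 1 library gave 1422 to 4663 genes and 2 to 5 family genes in f1f3 vs Col, 365 to 1233 genes and 2 to 3 family genes in pifq vs Col, and 1388 to 2859 genes and 4 to 5 family genes in pifq vs f1f3. The cause was not tested beyond the fewer libraries in each fit. In these fits the lone library of a group is assumed to vary like the others.

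Same-numbered libraries deviated together from their group means, with correlations of 0.345 (f1f3 with Col), 0.444 (pifq with Col) and 0.215 (pifq with f1f3), but the labels do not say that a number marks a shared batch. With a replicate block, 7436 genes were called in f1f3 vs Col, 2915 in pifq vs Col and 5458 in pifq vs f1f3. The family genes called with the block were 6, 5 and 7 in that order of comparisons, GRF2, GRF4 and the pair GRF9 and AN3 being added. In the other lists the block added GIF3, BRM, ARP7, CRF2 and BBM in f1f3 vs Col, HEC1 and BBM in pifq vs Col and HEC1 in pifq vs f1f3, among further genes.

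With 2 libraries a group, genes such as GRF8, at 13 to 171 reads a library, have wide intervals, and a call that was missed does not show that the levels were alike.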
